A study of Mus musculus with 6 samples.

Results

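miR-7 and miR-375 are small regulatory RNAs best known from endocrine cells. Their strands were followed in small RNA libraries of mouse brain after a sham operation or after cerebral ischemia-reperfusion. The members are all entries of the count tables whose names start with miR-7a-, miR-7b- or miR-375-. These are 5 of 622 mature miRNA names: the guide strands (mmu-miR-7a-5p and mmu-miR-7b-5p in the tables), the miR-7a passenger strands miR-7a-1-3p and miR-7a-2-3p, and miR-375-3p (mmu-miR-375-3p). All 6 libraries were made from brains of the inbred mouse strain C57BL/6J. The 3 sham libraries (numbered 3, 6 and 7) are labelled as having no treatment, and the 3 ischemia-reperfusion libraries (titled GCI 1, 2 and 3) as having both carotid arteries ligated for 20 minutes. Age, duration of reperfusion and brain region were not given in the sources used here. Whether each library is its own animal is not in the labels, and p-values therefore reflect only the spread between these samples, which may be technical.

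A miRNA is cut from a hairpin precursor, and 1 of its strands, the guide, is kept in an Argonaute protein and pairs with target mRNAs mainly through its seed, the bases near its 5′ end. The other strand, the passenger, is mostly degraded. miR-7 is an ancient miRNA that is abundant in hypothalamus, pituitary and pancreatic islets. In mouse brain it is bound by the circular RNA Cdr1as, which carries many miR-7 sites, and miR-671 can direct the cutting of Cdr1as. The mRNA of alpha-synuclein is among the known targets of miR-7. miR-375 is a major miRNA of pancreatic islets, where it restrains insulin secretion, and is also abundant in pituitary.

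The guides of miR-7a and miR-7b share their seed and are told apart by a single base and their length, which bears on every count below. They are given 5′ to 3′ from the RefSeq table (GRCm38.p6), with the seed, bases 2 to 8, in capitals.
miR-7a-5p: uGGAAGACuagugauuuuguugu
miR-7b-5p: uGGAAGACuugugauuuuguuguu
Both carry the seed GGAAGAC, and they are the 2 names that have it among the 1679 mature names in that table. Over their shared length they differ by 1 base (A10U, counted from 1 at the 5′ end, with the base of miR-7a-5p first), and miR-7b-5p is 24 bases long against 23 for miR-7a-5p. How many mismatches the counting allowed was not given in the sources used here, so some reads may have been assigned to the other guide.

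miR-7a-5p is made from 2 hairpins with the same guide, and its reads cannot be given to either. The passenger strands do differ between the hairpins, at the 3 bases shown in capitals (A7G, A10C and U21C, with the base of miR-7a-1-3p first).
miR-7a-1-3p: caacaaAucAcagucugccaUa
miR-7a-2-3p: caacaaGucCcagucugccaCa
The hairpins follow with their mature strands in capitals, the guide first and the passenger second. They show that the same guide sits in unlike precursors.
Mir7-1: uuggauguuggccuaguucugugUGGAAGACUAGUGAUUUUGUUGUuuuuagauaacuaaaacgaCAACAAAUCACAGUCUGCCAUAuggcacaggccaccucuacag
Mir7-2: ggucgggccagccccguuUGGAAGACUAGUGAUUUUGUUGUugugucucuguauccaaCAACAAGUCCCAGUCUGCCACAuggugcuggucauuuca
Mir7b: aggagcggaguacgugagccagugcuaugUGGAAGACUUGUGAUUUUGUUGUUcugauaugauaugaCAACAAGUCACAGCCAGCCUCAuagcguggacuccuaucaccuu
On GRCm38, Mir7-1 (chr13:58392779-58392886, minus strand) lies in an intron of Hnrnpk, a gene for an RNA-binding protein, on the same strand, per GENCODE vM21. Mir7-2 (chr7:78888277-78888373, plus strand), Mir7b (chr17:56242988-56243098, plus strand) and Mir375 (chr1:74900658-74900721, minus strand) overlap no other annotated gene. Sequences of 4 of the 5 members were matched in the table, all but miR-375-3p.

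Total counts, with 1 entry per name, ran from 1423905 to 2023475 per library, and 599 to 612 names were detected in each. The ischemia-reperfusion libraries differed more among themselves than the sham libraries did. The chi-square per degree of freedom of a pair over the tested miRNAs was 252 to 710 in the first group and 50.1 to 79.2 in the second, so no pair was a repeat of 1 library within sampling noise. Levels below are CPM, read counts normalised to the scaled library size, and fold changes are ischemia-reperfusion over sham.

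The miR-7 guides were among the most abundant miRNAs of these brains, and their levels did not pass the test for a change after ischemia-reperfusion. miR-7a-5p measured 131948, 110374 and 111483 CPM in sham 3, 6 and 7, and 76424, 131993 and 143805 CPM in GCI 1, 2 and 3. The second group held both the lowest and the highest value, so that the sham range lay within it. The means were 117935 ± 12148 and 117407 ± 35981 CPM (SD, n = 3 each). The log2 fold change was −0.0065 ± 0.28 (SE), and edgeR's quasi-likelihood test gave a Benjamini-Hochberg adjusted p of 0.993, adjusted over all tested miRNAs. Its 95% interval, from 0.644-fold to 1.54-fold, takes in a fall or a rise of moderate size. The sign turned with the library scaling, since RLE size factors gave 0.032. It also turned without GCI 1, where the log2 fold change was 0.24, or without sham 3 (0.12).

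miR-7b-5p had a higher mean after ischemia-reperfusion without passing the test. It measured 29535, 26886 and 26083 CPM in sham 3, 6 and 7, and 30505, 29489 and 38627 CPM in GCI 1, 2 and 3. The groups overlapped narrowly, since library 2 of the second group lay just under sham 3, and library 3 stood well above the rest. Means were 27501 ± 1807 and 32874 ± 5009 CPM (SD, n = 3 each). The log2 fold change was 0.26 ± 0.21 (SE; Benjamini-Hochberg adjusted p = 0.540, edgeR), with a 95% interval of 0.864-fold to 1.65-fold.

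**Figure D1:**
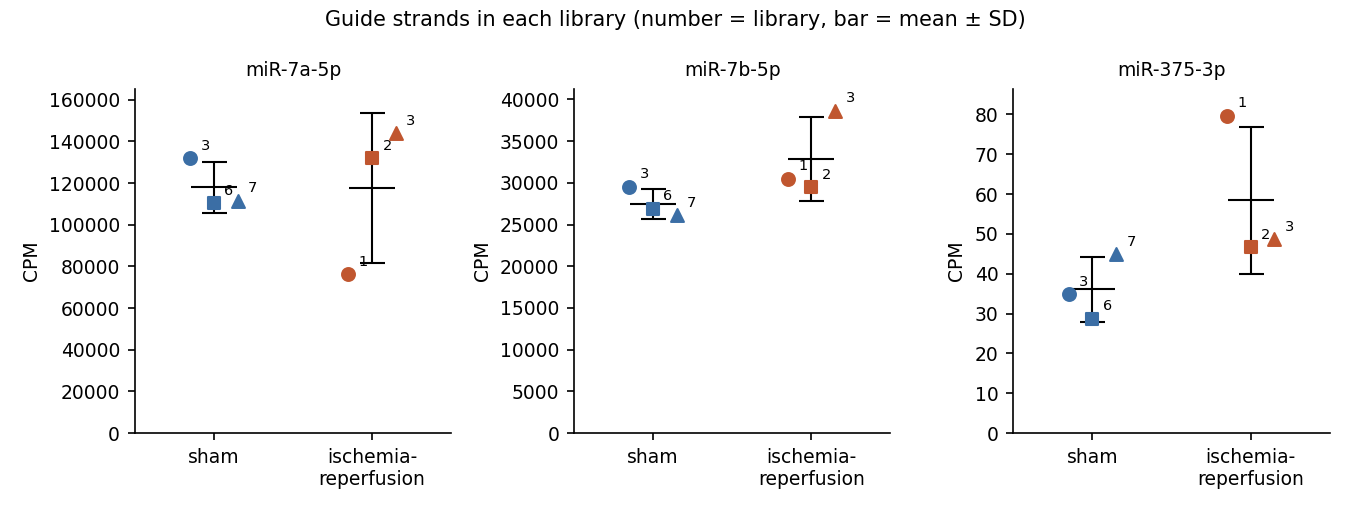
Levels (CPM) of miR-7a-5p, miR-7b-5p and miR-375-3p in the 3 sham and 3 ischemia-reperfusion libraries. Points are libraries with their numbers, and bars are the mean ± SD. miR-7a-5p is lowest in GCI 1 (76424 CPM), where miR-375-3p is highest (79.7 CPM).

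Together the miR-7 entries took 10.2% to 18.7% of all counts of a library. The share was 16.4% in sham 3 (95% Wilson interval 16.3% to 16.4%), 14.1% in sham 6 (14.0% to 14.1%) and 13.7% in sham 7 (13.6% to 13.7%). It was 10.2% in GCI 1 (10.2% to 10.3%), 15.9% in library 2 (15.9% to 16.0%) and 18.7% in library 3 (18.6% to 18.7%). These intervals cover counting error only, as PCR duplicates remain in the counts, and they are far narrower than the spread between libraries. The group means were 14.7% ± 1.45 and 15.0% ± 4.30 (SD, n = 3 each), so the difference of 0.250 percentage points was smaller than the spread in either group. Without GCI 1 the difference was 2.60 percentage points, and without library 3 it was −1.62. The guides made up almost all of this: miR-7a-5p and miR-7b-5p alone held 10.2% to 18.7%, and each passenger strand held under 0.01% of the counts.

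miR-7a-5p ranked 1, 2 and 3 among the 622 names in sham 3, 6 and 7, and 3, 2 and 1 in GCI 1, 2 and 3. By the sham mean its nearest neighbour was miR-26a-5p, at 114840 ± 17421 CPM (SD, n = 3), which did not differ from it beyond the spread. miR-7b-5p ranked 8 in each sham library, and 9, 8 and 5 in the other group. Its sham values lay below every sham value of miR-101b-3p (mean 38321 ± 1671 CPM) and above every one of let-7i-5p (22853 ± 1236 CPM). Adapter ligation favours some end sequences, so an order of different miRNAs within a library is less certain than the same miRNA across libraries.

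The ratio of the guides was close to the same in the sham libraries and ranged more widely in the GCI libraries, without a difference that passed a test. For each miR-7b-5p read there were 4.47, 4.11 and 4.27 miR-7a-5p reads in sham 3, 6 and 7, and 2.51, 4.48 and 3.72 in GCI 1, 2 and 3. Library 2 of the second group was level with the highest sham library, and libraries 1 and 3 were below all sham libraries. This ratio does not depend on library scaling. Its means were 4.28 ± 0.181 and 3.57 ± 0.994 (SD, n = 3 each). The log2 difference of −0.30 had p = 0.4 by a two-sided exact permutation test, and 0.4 after Benjamini-Hochberg adjustment over the 3 ratios tested, where 3 against 3 libraries allow no p under 0.1. Without GCI 1 the log2 difference was −0.068. In that library the departure was in miR-7a-5p, at 76424 CPM against at least 110374 CPM in sham, while miR-7b-5p (30505 CPM) was slightly above its sham values.

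**Figure D2:**
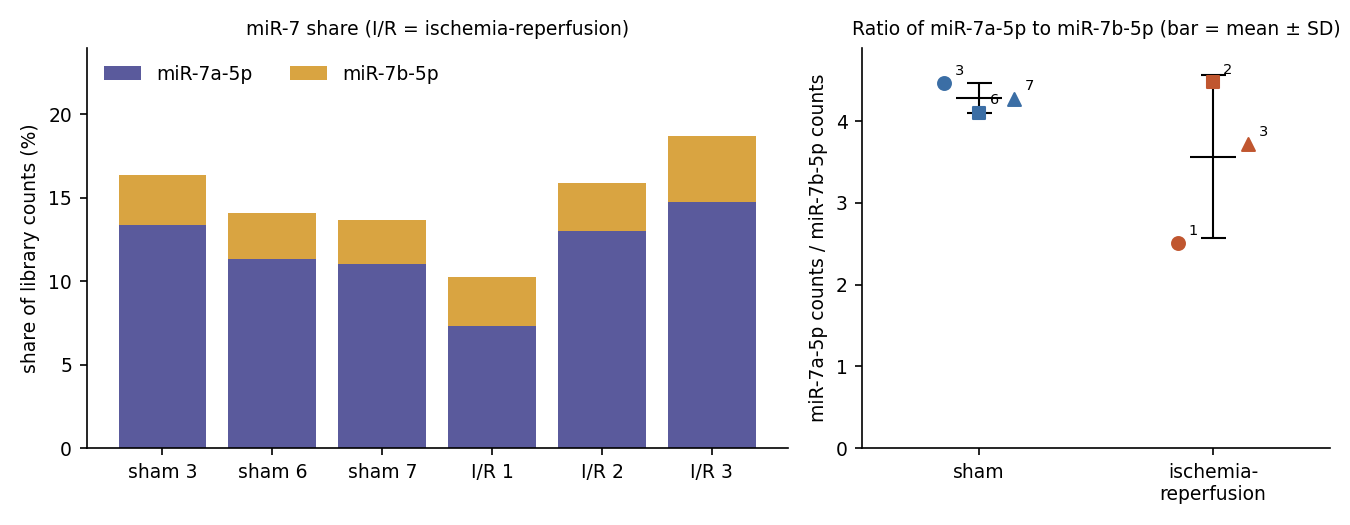
Left, share of each library's counts (%) held by miR-7a-5p and miR-7b-5p, stacked, for 3 sham and 3 ischemia-reperfusion (I/R) libraries. Right, miR-7a-5p counts per miR-7b-5p count, with points as libraries and bars as mean ± SD. The ratio is 4.11 to 4.47 in sham and 2.51 to 4.48 after ischemia-reperfusion.

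The passenger strand of Mir7-1 had lower values in every ischemia-reperfusion library than in any sham library, without passing the test over all miRNAs. miR-7a-1-3p measured 66.7, 63.0 and 64.5 CPM in sham 3, 6 and 7, and 33.5, 61.7 and 29.0 CPM in GCI 1, 2 and 3. Library 2 lay just under the sham range, and libraries 1 and 3 at about the same low level. Means were 64.7 ± 1.86 and 41.4 ± 17.7 CPM (SD, n = 3 each). The log2 fold change was −0.65 ± 0.29 (SE; Benjamini-Hochberg adjusted p = 0.294, edgeR), with a 95% interval of 0.403-fold to 1.01-fold. Without GCI 2 it was −1.06 ± 0.19 and passed (adjusted p = 0.00802, edgeR, Benjamini-Hochberg). In that fit 100 of 456 tested miRNAs (21.9%) passed, 42 of them lower (9.21%). Without GCI 3 the log2 fold change was −0.39.

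The passenger strand of Mir7-2 was rarer and varied more. miR-7a-2-3p measured 18.6, 30.1 and 21.9 CPM in sham 3, 6 and 7, and 13.4, 39.3 and 14.5 CPM in GCI 1, 2 and 3. Libraries 1 and 3 of the second group lay below all sham libraries and library 2 above them. Its means were 23.5 ± 5.93 and 22.4 ± 14.6 CPM (SD, n = 3 each), with a log2 difference of −0.076 ± 0.42 (SE; adjusted p = 0.932, edgeR, Benjamini-Hochberg) and a 95% interval of 0.489-fold to 1.84-fold. The sign of this difference turned without sham 6 (0.19), GCI 1 (0.18) or GCI 3 (0.23), and without GCI 2 it was −0.74. The counts behind it were 20 to 63 reads a library.

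Reads of the passenger strands can be split by hairpin, unlike those of the guide. Of all miR-7a passenger reads, miR-7a-1-3p made up 78.2% in sham 3 (111 of 142 reads, 95% Wilson interval 70.7% to 84.2%), 67.6% in sham 6 (92 of 136, 59.4% to 74.9%) and 74.7% in sham 7 (112 of 150, 67.2% to 81.0%). It made up 71.4% in GCI 1 (50 of 70, 59.9% to 80.7%), 61.1% in library 2 (99 of 162, 53.4% to 68.3%) and 66.7% in library 3 (60 of 90, 56.4% to 75.5%). Reads of the Mir7-1 passenger were thus the larger part in all 6 libraries. The groups overlapped, at 73.5% ± 5.36 and 66.4% ± 5.16 (SD, n = 3 each), and this share was computed after the values were seen and not tested.

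Guide reads outnumbered passenger reads by more than 1000 to 1 in each library. miR-7a-5p reads per passenger read, with 1 added to both counts, were 1536, 1177 and 1283 in sham 3, 6 and 7, and 1608, 1299 and 3275 in GCI 1, 2 and 3. Library 3 of the second group stood apart, since it had the highest miR-7a-5p level and few passenger reads, and library 2 lay inside the sham range. Means were 1332 ± 184 and 2061 ± 1063 (SD, n = 3 each). The log2 difference of 0.52 had an exact two-sided permutation p of 0.2 (0.4 adjusted over the 3 ratios), and it was 0.13 without GCI 3. The count tables hold no entry for a passenger strand of miR-7b or for miR-375-5p.

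**Figure D3:**
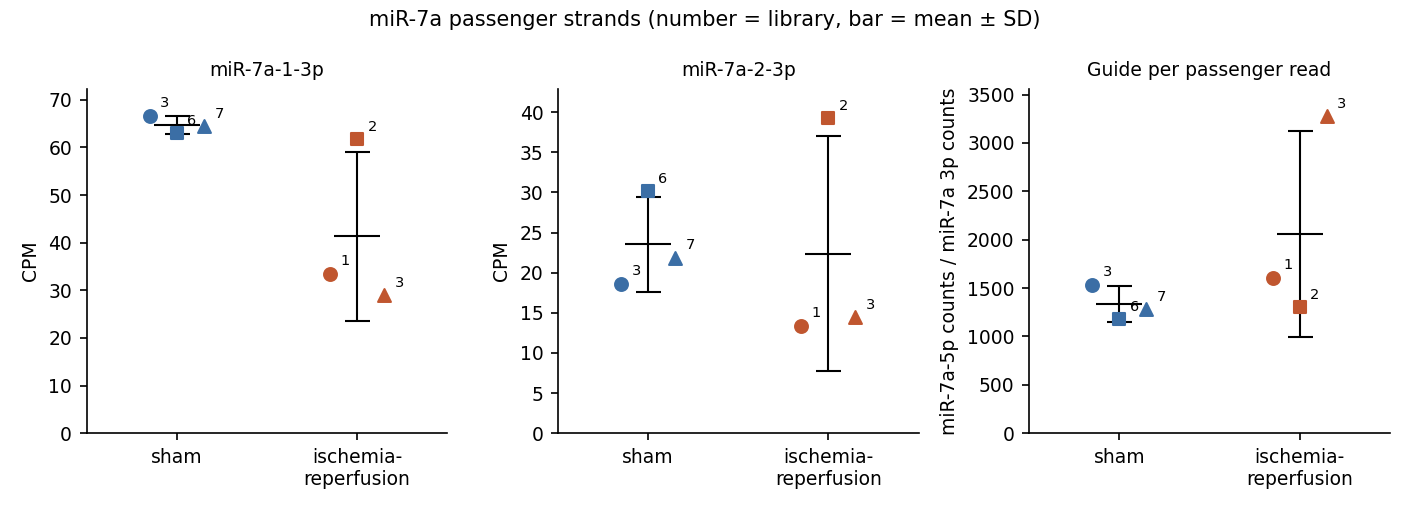
Levels of both passenger strands, miR-7a-1-3p and miR-7a-2-3p, in CPM, and the number of miR-7a-5p reads per passenger read, in each library by number, with mean ± SD. miR-7a-1-3p spans 63.0 to 66.7 CPM in sham and 29.0 to 61.7 CPM after ischemia-reperfusion.

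miR-375-3p, the endocrine miRNA of the set, was rare in these brains and had higher values in every ischemia-reperfusion library. It was counted 58, 42 and 78 times in sham 3, 6 and 7, and 119, 75 and 101 times in GCI 1, 2 and 3. In CPM these are 34.8, 28.8 and 44.9 against 79.7, 46.7 and 48.7. Libraries 2 and 3 of the second group were close to the highest sham library, and library 1 stood well above both. Means were 36.2 ± 8.15 and 58.4 ± 18.5 CPM (SD, n = 3 each), a fold of 1.60. The log2 fold change of 0.68 ± 0.28 (SE, 95% interval 0.040 to 1.32) did not pass over all miRNAs (Benjamini-Hochberg adjusted p = 0.276, edgeR). Without GCI 1 it was 0.41.

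miR-375-3p ranked 290, 309 and 272 among the names of sham 3, 6 and 7, and 222, 268 and 262 in GCI 1, 2 and 3. Its sham mean did not differ beyond the spread from those of its neighbours miR-377-3p (36.5 ± 4.46 CPM) and miR-337-3p (36.2 ± 4.09 CPM; SD, n = 3). Relative to the summed miR-7 guide reads, miR-375-3p reads came to 0.0216%, 0.0209% and 0.0326% in sham 3, 6 and 7, and 0.0745%, 0.0289% and 0.0267% in GCI 1, 2 and 3. Libraries 2 and 3 of the second group lay inside the sham range, and library 1 far above it, where miR-375-3p was high and miR-7a-5p low. The log2 difference of this ratio was 0.66 (exact two-sided permutation p = 0.3, 0.4 adjusted over the 3 ratios), and 0.18 without GCI 1.

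Of the 5 strands, all of which were kept by the filter on low counts, edgeR's quasi-likelihood test called 0 at an adjusted p under 0.05, against 10 of 440 tested miRNAs (2.27%). DESeq2, which called 26 of 440 (5.91%), and limma-voom, which called 10 of 440 (2.27%), also called 0 of the 5. At an unadjusted p under 0.05 edgeR gave 1 of the 5, miR-375-3p, against 74 of 440 (16.8%). DESeq2 gave the same 1 at that level, and limma-voom gave 2, adding miR-7a-1-3p. The groups did not overlap for 2 of the 5, against 96 of all tested miRNAs (21.8%). For miR-375-3p all ischemia-reperfusion values were higher, as for 45 of all tested (10.2%), and for miR-7a-1-3p all were lower, as for 51 (11.6%). The median log2 fold change was −0.0065 over the 5 strands and −0.054 over all 440. In such whole-tissue samples fewer cells of a type and less RNA per cell cannot be told apart.

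**Figure D4:**
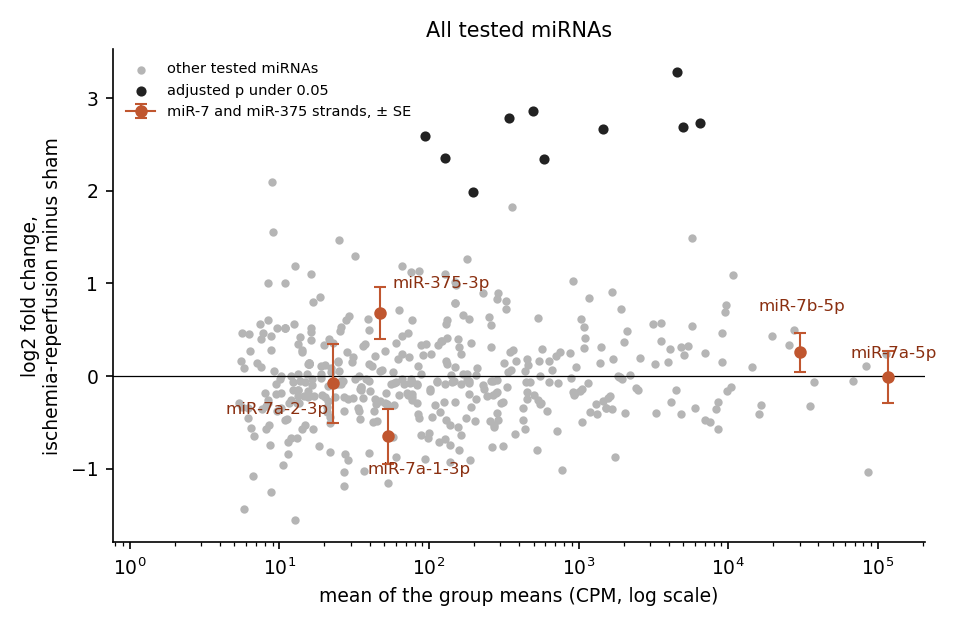
Log2 fold change (ischemia-reperfusion minus sham) of 440 tested miRNAs against the mean of the group means (CPM, log scale). The 5 miR-7 and miR-375 strands are marked with their SE, and black points are the 10 miRNAs with an adjusted p under 0.05. miR-7a-5p lies at the far right, near 0.

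The label of neuroendocrine cells was set against other miRNAs of such cells and of the rest of the brain. These lists do not separate endocrine cells from the neurons that also hold miR-7, so the label could not be tested in whole tissue. Companions of miR-7 and miR-375 in pituitary and other endocrine or sensory cells, which are 5 miR-200 family members and the 3 guides of the miR-183 cluster, were present in all libraries. All 8 rose, with a median log2 fold change of 2.71. EdgeR called 8 of 8 at an adjusted p under 0.05 (Benjamini-Hochberg), against 10 of 440 tested miRNAs (2.27%). These 8 thus made up most of all calls. Their summed level was 1982, 5107 and 7191 CPM in sham 3, 6 and 7, and 50923, 22069 and 27224 CPM in GCI 1, 2 and 3. The list was written with these results known, so its count is no independent evidence. Without sham 6 or GCI 3 edgeR called 0 of all tested miRNAs (44 and 57 at an unadjusted p under 0.05), and without GCI 1 it called 1. Both miR-375-3p and this sum were highest in GCI 1, but in sham 3, where the sum was lowest, miR-375-3p was not. The part of these cells in the miR-375-3p values was not tested.

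**Figure D5:**
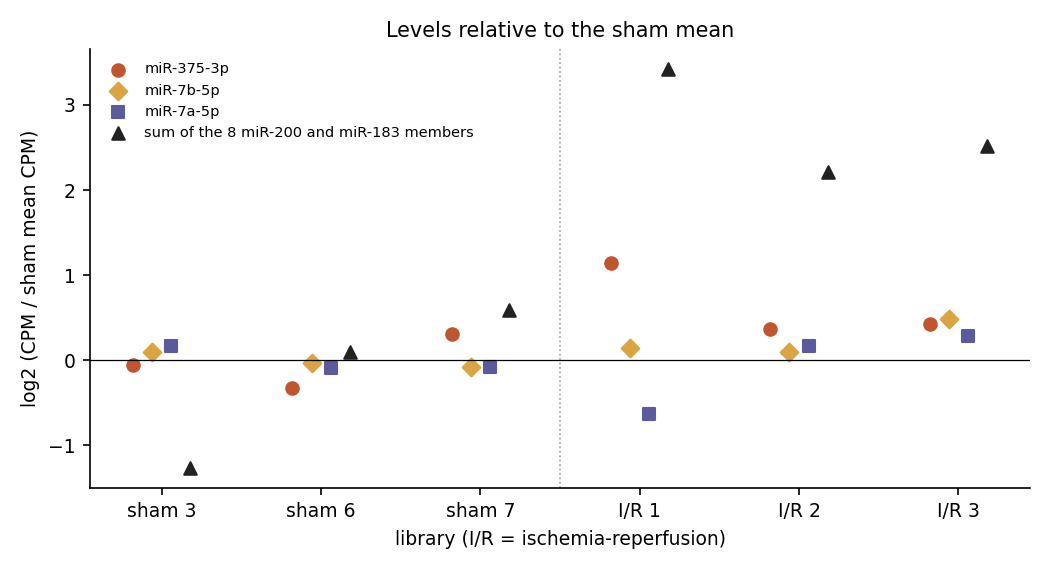
Log2 of the CPM over the sham mean in each library for miR-375-3p, miR-7b-5p, miR-7a-5p and the summed 8 miR-200 family and miR-183 cluster members. After ischemia-reperfusion (I/R) the sum lies 2.21 to 3.42 above its sham mean and miR-375-3p 0.37 to 1.14, while miR-7a-5p lies −0.63 to 0.29 from it.

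Of the miRNAs tied to Cdr1as, miR-671-5p had means of 25.2 ± 5.87 and 23.7 ± 3.17 CPM in the sham and GCI libraries (SD, n = 3 each). Its log2 difference of −0.086 ± 0.26 (SE) did not pass (adjusted p = 0.885, edgeR, Benjamini-Hochberg). miR-671-3p, at 4 to 9 reads a library, was too low to test.

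Markers of the other cell types were present as well. The 8 neuronal miRNAs summed to 101761 to 118324 CPM in sham and 97548 to 108590 CPM after ischemia-reperfusion, with miR-9-5p and miR-124-3p the most abundant among them. The 6 astrocyte miRNAs summed to 20321 to 22630 and 19406 to 21837 CPM, and the 3 of choroid plexus to 1637 to 1891 and 1673 to 1972 CPM. These ranges overlap. EdgeR, DESeq2 and limma-voom called 0 members of the 3 lists, against 10, 26 and 10 of 440 over all (2.27%, 5.91% and 2.27%). At an unadjusted p under 0.05 edgeR gave 0 of 8 neuronal, 1 of 6 astrocyte and 0 of 3 choroid plexus miRNAs. Over all miRNAs it gave 74 of 440 (16.8%). Limma-voom gave 1 neuronal miRNA at that level, miR-128-3p. The astrocyte miRNA was miR-23b-3p, at 2043 to 2376 CPM in sham and 809 to 1645 CPM after ischemia-reperfusion. Its log2 fold change was −0.87 ± 0.26 (SE; adjusted p = 0.133, edgeR, Benjamini-Hochberg). Of the 6 astrocyte miRNAs, 4 had a negative log2 fold change and 2 a positive one. The neuronal sum was mostly miR-9-5p, with means of 69858 and 67551 CPM. Of the 8 neuronal miRNAs, 6 had a negative log2 fold change and 2 a positive one, with a median of −0.29. Over all 440 tested miRNAs 243 were negative.

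Several lists of other origin were highest in GCI 1, the library with high miR-375-3p and low miR-7a-5p. The 4 oligodendrocyte miRNAs summed to 2704 CPM there against 1149 to 1203 CPM in sham, and the 4 of microglia and leukocytes to 672 against 394 to 467 CPM. Red blood cell miRNAs summed to 558 against 394 to 458 CPM, the 2 hindbrain and spinal cord miRNAs found, miR-10a-5p and miR-10b-5p, to 528 against 230 to 290 CPM, and 3 of pancreatic acinar cells to 189 against 46.5 to 66.2 CPM. In GCI 2 these sums were 1167, 398, 409, 275 and 49.2 CPM, each within its sham range. In GCI 3, where miR-7a-5p was highest and miR-375-3p close to the highest sham value, they were 1773, 483, 511, 351 and 106 CPM, each above its sham range, so the excess was not particular to GCI 1. EdgeR and limma-voom called 0 members of these 5 lists, against 10 of 440 tested miRNAs (2.27%) by each tool. DESeq2 called miR-486a-5p of red blood cells, and 26 of 440 over all (5.91%). At an unadjusted p under 0.05 edgeR gave 1 tested member in each list. The tested members were 4, 4, 3, 2 and 1 in the same order, and over all miRNAs 74 of 440 (16.8%) passed that level. These lists are too short for their counts to be set against that share. Of the oligodendrocyte sum in GCI 1, miR-219a-2-3p alone held 1986 CPM (544 to 630 CPM in sham). There miR-219a-5p, at 82.3 CPM, was below its sham range of 96.7 to 143 CPM. So was miR-223-3p of leukocytes, at 2.68 CPM against 6.91 to 21.6 CPM. The remaining oligodendrocyte, microglia and leukocyte members were above their sham ranges in that library. Of the red blood cell members, miR-451a (256 CPM) lay under its sham range there, 279 to 333 CPM. The same held for miR-144-3p (20.1 CPM, sham range 21.3 to 22.6 CPM). The excess of that sum lay in miR-486a-5p, counted 410 times in GCI 1 and 156 to 160 times in the sham libraries. miR-144-5p, at 5 to 16 reads a library, was too low to test. The acinar sum was mostly miR-217-5p, at 173 CPM in GCI 1 and 39.7 to 60.4 CPM in sham. Its companions miR-216a-5p and miR-216b-5p, at 3 to 15 reads a library, were also too low to test. No marker found in the tables was at 0 in any library. Their part in the miR-7 and miR-375 values was not tested.

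The miRNAs whose levels ran most closely with each guide were different sets. Likeness was Pearson's r of log2 CPM over the 6 libraries, among 408 tested miRNAs averaging at least 10 CPM in either group, and is a description, since the libraries share their group and scaling. Nearest to miR-7a-5p were miR-350-3p (r = 0.95), miR-582-5p (0.94), miR-770-5p (0.92), miR-149-5p (0.91) and miR-423-3p (0.89). All 5 had their lowest value in GCI 1, for example 22.1 CPM against 54.7 to 61.3 CPM in sham for miR-770-5p. Since they were picked for likeness, a shared lowest or highest library, here and below, is no separate evidence.

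Nearest to miR-7b-5p were miR-218-5p (r = 0.92), a miRNA of motor and other neurons, miR-148b-3p (0.91), miR-34c-5p (0.91), miR-34b-5p (0.88) and miR-344f-3p (0.88). Each of the 5 was highest in GCI 3, as was miR-7b-5p. miR-218-5p stood at 8122 CPM there against 4718 to 4982 CPM in sham. Of the 8 neuronal miRNAs listed above it was 1 of the 2 with a positive log2 fold change (0.32), while 6 had a negative one.

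Nearest to miR-375-3p were miR-122-5p (r = 0.98), the abundant miRNA of hepatocytes, miR-20a-5p (0.97), miR-192-5p (0.96), which is abundant in gut and liver, miR-140-3p (0.94), known from cartilage, and let-7g-5p (0.94). All 5 were highest in GCI 1. miR-122-5p stood at 63.6 CPM in that library, 26.8 and 21.2 CPM in ischemia-reperfusion libraries 2 and 3, and 8.21 to 16.7 CPM in sham. Among miR-7a-5p, miR-7b-5p and miR-375-3p themselves, which were not picked for likeness and so cannot be set against the values above, r was 0.34 between miR-7a-5p and miR-7b-5p, 0.34 between miR-7b-5p and miR-375-3p, and −0.58 between miR-7a-5p and miR-375-3p.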

How the data were processed

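Per the labels' protocols, RNA was extracted with TRIzol and 1 µg was made into libraries with the NEBNext small RNA kit, sized to inserts of 15 to 35 nt. Per the submitters' processing notes, cutadapt and Bowtie were used, with versions, build and miRNA reference not given in the sources used here. Raw read counts make up the deposited tables, with 727 rows each. Where a name was repeated (50 names), its row of highest total stood for it. The pair of miR-7a-5p rows differed by at most 92 reads in any library (0.0475% at most).

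Counts were tested with edgeR 4.0.16 (R 4.3.3) by the quasi-likelihood test after filterByExpr and TMM scaling, with the group alone as the model on all 6 libraries, and checked on simulated data. P-values were adjusted by Benjamini-Hochberg over 440 miRNAs, with a threshold of 0.05. Intervals of fold changes use the test's own degrees of freedom. Alternatives used DESeq2 1.42.0, limma-voom (limma 3.58.1), other scalings and filters, and each library left out. At these depths a count of 0 allows up to 3 reads, 1.48 to 2.11 CPM, which covers counting error only. Ratios were compared by exact permutation (scipy 1.17.1). The members and the marker lists were chosen with earlier results of these data known. The text names all members, the 5 miRNAs nearest in pattern to each guide and miR-375-3p, up to 4 members of a marker list and the neighbours in level. Of these, miR-486a-5p was named because DESeq2 called it.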

Additional observations from a re-analysis of the deposited data

How the results depend on the processing

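No paired analysis was possible because the groups share only the library number 3. Calls over all miRNAs, 10 as reported, were 4 with RLE size factors, 26 with DESeq2 and 0 to 100 with single libraries left out (0 without sham library 6 or ischemia-reperfusion library 3, 100 without ischemia-reperfusion library 2). Calls among the 5 strands, 0 as reported, ranged from 0 to 1 over the same omissions. The log2 fold change of miR-7a-5p turned positive with RLE size factors (0.032), no filter (0.029), at least 10 CPM in 3 libraries (0.027), DESeq2 (0.032) and summed repeated rows (0.055), and ranged from −0.12 to 0.24 with single libraries left out; the cause was not tested. That of miR-7a-2-3p ranged from −0.74 to 0.23. miR-7b-5p (0.18 to 0.35), miR-375-3p (0.41 to 0.87), miR-7a-1-3p (−1.06 to −0.39) and the 3 ratios kept their direction under all alternatives run. The difference in miR-7 share, 0.250 percentage points, was −1.33 with the 5 most abundant other miRNAs left out of the total, again under the spread between libraries. In that setting ischemia-reperfusion library 3, at 26.99%, no longer held the largest share. Ischemia-reperfusion library 2 held 27.90% and sham library 3 held 27.03%. With 20 to 119 reads a library, counting error limits miR-375-3p and the passenger strands, but not the guides.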
